A study of Mus musculus with 4 samples.

Results

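A set of 10 genes that cyclic AMP (cAMP) is known to induce was described in melanocyte stem cells: the orphan nuclear receptor genes Nr4a1, Nr4a2 and Nr4a3, the kinase gene Sik1, the coactivator gene Ppargc1a, the signalling regulators Rgs2, Gem, Irs2 and Akap12, and the growth factor gene Areg. They were chosen by name, 10 of the 27933 genes counted, and all 10 were present in the count tables. The cells, pigment cell precursors of the hair follicle, had been sorted from mouse skin by flow cytometry 12 h after an injection, and RNA was sequenced from 2 libraries of control mice given saline and 2 libraries of stressed mice given RTX, an agent the labels name by this abbreviation alone. Strain, age and sex of the mice, the genotype or antibodies used for sorting, and the number of animals behind each library are not given in the sources used here. Going by its title, the study asked how overactive sympathetic nerves deplete these cells, and the comparison made here asks whether transcripts that answer to cAMP differed between the groups.

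Noradrenaline released by sympathetic nerves acts on adrenergic receptors, some of which switch on adenylyl cyclase, and the cAMP formed activates protein kinase A. The kinase phosphorylates the transcription factor CREB, which binds the cAMP response element (CRE) in promoters, and CREB-regulated transcription coactivators (CRTCs) raise the transcription of its targets. Melanocytes use the same relay downstream of the melanocortin receptor MC1R, where it drives Mitf and pigment synthesis. Most of the genes described here are transient targets, and several feed back on the relay or carry the signal to other pathways.

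Total counts per library lay between 9273652 and 11854280. Values are CPM, counts scaled to a common library total after TMM correction, which assumes that most genes do not differ. A pair of values for a group is given in the order replicate 1, replicate 2. The detection limit of 3 counts was worth between 0.253 and 0.323 CPM, for counting error only. All 10 melanocyte markers were detected, with sums of 23591 and 22861 CPM in the control pair and of 41017 and 38521 CPM in the stressed pair. The 15 keratinocyte markers summed to 29071 and 17764 CPM in control and to 11202 and 9500 CPM in stressed libraries, and 14 immediate early genes summed to 19525 and 32295 CPM in control and to 14825 and 10421 CPM in stressed libraries. Markers of fibroblasts, immune, endothelial and Schwann cells summed to at most 89.0 CPM per type in any library. Some were clearly detected. The immune gene H2-Ab1 had 92 and 578 counts in control and 33 and 60 in stressed libraries, and was called lower by DESeq2 (adjusted p = 0.0036). Cd74, also immune, had 62 and 417 against 53 and 65 counts. The Schwann gene Mbp had 371 and 400 against 247 and 141 counts, and the fibroblast gene Dcn 2 and 113 against 161 and 83. Others were near 0, with the fibroblast gene Lum and the endothelial gene Cdh5 at 0 counts in every library and the immune gene Ptprc at 0 to 6. Mitochondrially encoded transcripts took 0.906% and 2.07% of counts in the control pair and 0.479% and 0.405% in the stressed pair. Fewer cells of a type and less RNA per cell cannot be told apart in such bulk libraries, and the parts of keratinocyte RNA and of the mitochondrial share in the results below were not tested.

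Of the 10 genes, Nr4a2 was the one that rose by a test over all genes, that of DESeq2, and Ppargc1a and Akap12 were the only others whose stressed libraries both lay above both control libraries. The fitted difference, as log2 of stressed over control, was above 0 for 9 of the 10, against 49.1% of the 13348 genes tested, and had a median of 0.29, against -0.0091 over all tested genes. That balance was not stable, being 5 above and 5 below 0 if either stressed replicate 1 or control replicate 2 was left out, and 10 above 0 if stressed replicate 2 was. All 10 passed the low-count filter, a level equal to 0.92 CPM in at least 2 libraries, but Akap12 did so through its stressed libraries alone. Without Akap12 the median of the other 9 was 0.24. By edgeR's quasi-likelihood test with Benjamini-Hochberg adjustment, 0 of the 10 genes passed an adjusted p of 0.05, where 0% of all genes did. At an unadjusted p below 0.05 edgeR had 2 of the 10, Nr4a2 and Ppargc1a, where it had 12.8% of all genes. DESeq2 called 1 of the 10, which was higher, where it called 1.73% of all genes higher and 4.4% in either direction, and limma-voom called 0 of the 10, where it called 0% of all genes. Both stressed libraries exceeded both controls in 3 of the 10, against 21.8% of all genes, and in 2 of the 9 other than Akap12, whose passing of the filter favoured that order. Read against the background, this is no result about the 10.

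**Figure D1:**
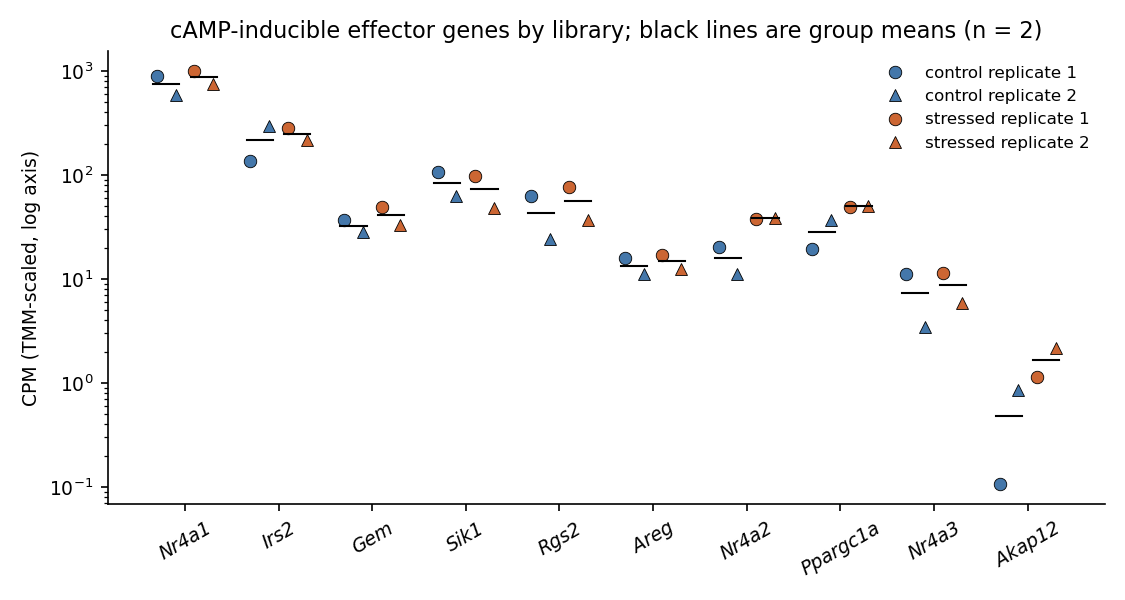
CPM of the 10 genes in each library on a log axis, ordered by their mean level per kilobase, with control libraries in blue, stressed libraries in orange, replicate 1 as circles and replicate 2 as triangles. The stressed points of Nr4a2, Ppargc1a and Akap12 lie above both control points, and those of the other 7 genes overlap the controls.

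The NR4A receptors are nuclear receptors that act without a known physiological ligand and are controlled mainly by how much of them is made. In melanocytes the family is a known target of MC1R and cAMP, and it has been linked to the repair of ultraviolet damage. The promoters of the 3 genes are shown because of what they share. RefSeq promoters (build GRCm38.p6, the assembly of mm10) reach from 250 bases before the start site to 50 after it, and 7 of the 10 genes matched an entry. They were searched on both strands for the full CRE, TGACGTCA, and for its core, TGACG, leaving out cores inside a full CRE. Each of the 3 NR4A promoters held 4 cores and no full CRE. At least 4 cores were found in 33 of all 32851 promoters, or 0.1%, a threshold set after the counts were seen, while at least 1 core was found in 19.5% and a full CRE in 1.79%. The NR4A promoters were also rich in G and C, at 72.3%, 81.7% and 64.7% for Nr4a1, Nr4a2 and Nr4a3, against a median of 52.7% over all promoters, and the part of base composition in the count was not tested. The stretches that hold the cores follow, 5′ to 3′ on the strand of the gene, with each core in capitals, where CGTCA is a core on the opposite strand. They lie at chr15:101266608-101266815 (plus strand) for Nr4a1, chr2:57124105-57124208 (minus strand) for Nr4a2 and chr4:48045069-48045109 (plus strand) for Nr4a3. The fourth core of Nr4a3, which begins 147 bases before its RefSeq start, lies inside an annotated exon and is not printed. The start used for counting Nr4a3 lay 152 bases before the RefSeq start, so this core falls within the counted gene.
Nr4a1: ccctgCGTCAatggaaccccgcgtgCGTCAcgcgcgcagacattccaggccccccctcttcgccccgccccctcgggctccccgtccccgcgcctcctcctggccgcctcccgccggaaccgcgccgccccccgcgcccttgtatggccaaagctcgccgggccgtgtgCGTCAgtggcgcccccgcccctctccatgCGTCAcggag
Nr4a2: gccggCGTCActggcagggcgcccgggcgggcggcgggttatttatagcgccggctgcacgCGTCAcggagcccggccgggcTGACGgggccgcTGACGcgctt
Nr4a3: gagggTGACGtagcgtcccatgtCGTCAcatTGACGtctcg

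**Figure D2:**
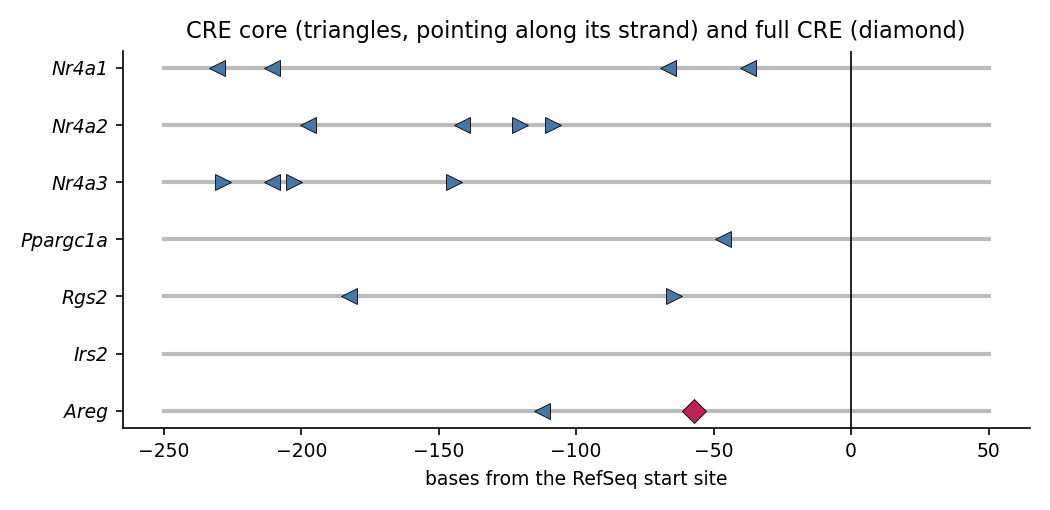
Positions of the CRE letters in the 7 matched promoters, in bases from the RefSeq start site, with cores as triangles that point along their strand and the full CRE as a diamond. Nr4a1, Nr4a2 and Nr4a3 each carry 4 cores, and Areg carries the 1 full CRE. Irs2 carries none in its window, whose RefSeq start lies 471 bases from the start used for counting.

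Of the 3 receptor genes, Nr4a2 was called by DESeq2, and Nr4a1 and Nr4a3 were called by neither DESeq2 nor edgeR. Differences between the 3 were not tested, and their intervals overlap. Nr4a2 (chromosome 2, 57106830-57124003, mm10) encodes NURR1, best known for its part in dopamine neurons. Its level was 20.4 and 11.2 CPM in the control pair and 37.9 and 38.4 CPM in the stressed pair. Both stressed libraries were high and almost equal, and neither control reached them. Nr4a2 rose by DESeq2, with a log2 fold change of 1.28, an SE of 0.39 and an adjusted p of 0.03, higher in 2 of 2 stressed libraries. By edgeR the log2 fold change was also 1.28, with an SE of 0.34, a 95% interval from 0.46 to 2.10 and an adjusted p of 0.231. The controls were 0.86 log2 units apart. The DESeq2 call was lost without control replicate 2, at 0.91 with an adjusted p of 0.21, and also without stressed replicate 1 or 2, where the log2 fold change held at 1.29 and 1.27 with adjusted p values of 0.565 and 0.949. Without control replicate 1 the log2 fold change was 1.77 by either tool, and both called the gene. On all 4 libraries with no low-count filter edgeR called the gene (adjusted p = 0.0134), as it did 760 of 18926 genes.

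Nr4a1 (chromosome 15, 101266846-101274792) encodes NUR77, the founding member of the family. The control libraries held 896 and 589 CPM and the stressed libraries 989 and 749 CPM. The lower stressed library lay between the controls, so the groups overlapped. The edgeR log2 fold change of 0.23 was smaller than its SE of 0.28 (adjusted p = 0.804), and its 95% interval ran from -0.45 to 0.91. Leaving out control replicate 2 gave -0.045. Nr4a3 (chromosome 4, 48045153-48086447), which encodes NOR1, was at 11.2 and 3.47 CPM in control and at 11.5 and 5.91 CPM in stressed libraries. Here each group held a high and a low library, 1.70 and 0.95 log2 units apart, and the difference of 0.24 had an SE of 0.65 (edgeR adjusted p = 0.925) and a 95% interval from -1.32 to 1.80. It became -0.37 with control replicate 2 left out and -0.31 with stressed replicate 1 left out.

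The make-up of the family was compared on counts per base of exon, which allows levels of different genes to be set side by side. Nr4a1 supplied between 96.7% and 98.6% of NR4A transcripts in every library. The share of Nr4a2 was 1.36% and 1.14% in the control and 2.27% and 3.02% in the stressed libraries. The groups did not overlap, and the ratio of Nr4a2 to Nr4a1 per base was 0.0127 ± 0.0016 in control and 0.0273 ± 0.0056 in stressed cells (SD, n = 2), with an exact permutation p of 0.333, two-sided, the smallest that 2 libraries against 2 allow. The ratio of Nr4a3 to Nr4a1 was 0.00381 ± 0.0019 and 0.00403 ± 0.0011 (exact permutation p = 1), with overlapping groups. Nr4a2 was thus a minor transcript of the family in every library, with its larger shares in the stressed pair.

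Sik1 and Ppargc1a act on transcription downstream of CREB. Sik1 (chromosome 17, 31844248-31855792) encodes a salt-inducible kinase that phosphorylates CRTCs and class IIa histone deacetylases and so limits the response that induced it. Control values were 105 and 62.2 CPM, and stressed values 98.1 and 48.1 CPM. Each group had a high and a low library, and Sik1 was the 1 gene of the 10 with a fitted value below 0, at -0.20 with an SE of 0.39 (edgeR adjusted p = 0.895). Leaving out control replicate 1 or stressed replicate 2 gave 0.24 by edgeR in either case.

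Ppargc1a (chromosome 5, 51454250-51567726) encodes PGC-1alpha, a coactivator of mitochondrial genes that also supports Mitf transcription in melanocytes. Its level was 19.3 and 36.9 CPM in control and 49.1 and 50.6 CPM in stressed cells. The stressed libraries were almost equal and lay above both controls, while the controls were 0.94 log2 units apart. The log2 fold change was 0.82 with an SE of 0.33 and a 95% interval from 0.019 to 1.63, and the gene passed neither edgeR (adjusted p = 0.38) nor DESeq2 (adjusted p = 0.264) over all genes. It passed both without control replicate 2, at 1.37 with adjusted p values of 0.0142 and 0.00776, and was at 0.44 without control replicate 1. Its promoter held 1 core, 49 bases before the start (chr5:51567765-51567779, minus strand), in the setting tcccaCGTCActgag.

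The signalling regulators act near the membrane. Rgs2 (chromosome 1, 143999338-144004161) encodes a GTPase activator that ends signalling by Gq-coupled receptors. Control cells had 62.9 and 24.0 CPM of Rgs2, and stressed cells 76.0 and 36.9 CPM. The spread within each group, 1.39 and 1.04 log2 units, exceeded the difference of 0.38 between them, which had an SE of 0.52 (edgeR adjusted p = 0.824). The value ran from -0.23 without stressed replicate 1 to 1.24 without control replicate 1. In the latter fit edgeR called Rgs2 and DESeq2 did not. The Rgs2 promoter held 2 cores, printed here to show their spacing (chr1:144004207-144004339, minus strand).
Rgs2: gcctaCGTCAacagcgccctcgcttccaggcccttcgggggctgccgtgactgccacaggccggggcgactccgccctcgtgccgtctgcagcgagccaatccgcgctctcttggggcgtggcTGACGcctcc

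Gem (chromosome 4, 11704457-11714752) encodes a small GTPase that restrains voltage-gated calcium channels. The controls had 36.6 and 28.5 CPM and the stressed libraries 48.9 and 33.1 CPM. The lower stressed value fell between the controls, and the difference of 0.33 had an SE of 0.28 (edgeR adjusted p = 0.695). With each library left out in turn its sign held, from 0.025 to 0.60 by edgeR.

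Irs2 (chromosome 8, 10984681-11008458) encodes an adaptor of the insulin and IGF1 receptors, and its induction through cAMP is best known from liver and pancreatic islets. Control values were 137 and 297 CPM, and stressed values 282 and 217 CPM. The controls held both the lowest and the highest value of the 4 libraries, and the difference of 0.20 had an SE of 0.37 (edgeR adjusted p = 0.881). The value was -0.25 if control replicate 1 was left out and 0.87 if control replicate 2 was. In the latter fit edgeR and DESeq2 both called Irs2. The antisense gene 9530052E02Rik shares 162 exon bases with Irs2, and counting did not use strand, but that gene had at most 1 count in any library. The Irs2 promoter held no CRE letters in its window. Its RefSeq start lay 471 bases from the start used for counting, so the window did not reach the latter.

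Akap12 (chromosome 10, 4266329-4359468) encodes gravin, a scaffold that holds protein kinase A near the membrane. It was barely detected, with 1 and 10 counts in control and 12 and 24 counts in stressed libraries, or 0.11 and 0.85 against 1.13 and 2.18 CPM. The groups did not overlap, but the controls were themselves 2.98 log2 units apart. Over the summed counts, 36 against 11, the ratio was 3.20, with an exact binomial 95% interval from 1.59 to 6.96 that covers counting error only. The fitted log2 difference of 1.73 had an SE of 1.08 (edgeR adjusted p = 0.574). It ran from 0.96 with control replicate 1 left out to 3.81 with control replicate 2 left out.

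Areg (chromosome 5, 91139599-91148432) encodes amphiregulin, a ligand of the EGF receptor that skin keratinocytes also make. Amphiregulin mRNA was at 15.7 and 11.1 CPM in control and at 17.0 and 12.5 CPM in stressed libraries. These overlapped, and the difference of 0.14 had an SE of 0.34 (edgeR adjusted p = 0.921). The difference was -0.097 with control replicate 2 left out and -0.11 with stressed replicate 1 left out. The summed keratinocyte markers stood at 29071 and 17764 against 11202 and 9500 CPM, and their part in the Areg values was not tested. Areg is shown with its promoter because it held the 1 full CRE of the 7, 61 bases before the start, together with 1 core (chr5:91139479-91139550, plus strand).
Areg: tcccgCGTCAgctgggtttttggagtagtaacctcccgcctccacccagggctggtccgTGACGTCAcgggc

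The 10 genes differed in how far apart the libraries of a group lay. In Nr4a2 and Ppargc1a the stressed libraries were 0.017 and 0.045 log2 units apart, against a median gap of 0.25 over all tested genes. In Sik1, Rgs2, Nr4a3 and Akap12 the stressed gap was between 0.95 and 1.04. The control gap exceeded its all-gene median of 0.36 in 9 of the 10 genes, up to 2.98 in Akap12, and was 0.36 in Gem as well. For Nr4a1, Nr4a3, Sik1, Rgs2, Gem and Areg, 6 of the 10, replicate 1 was the higher library in both groups.

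**Figure D3:**
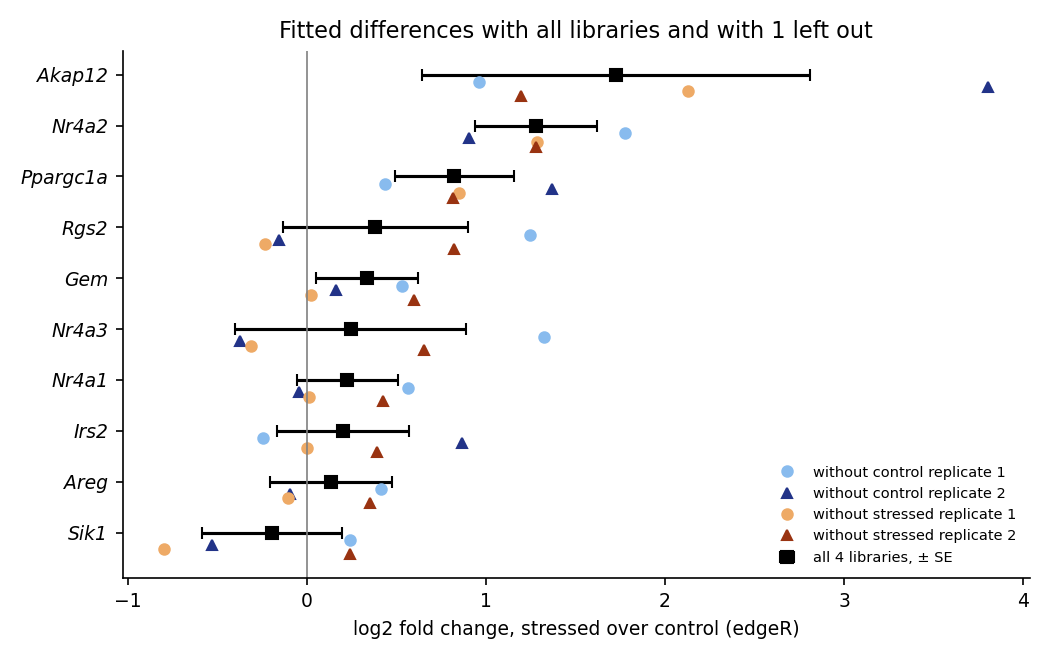
Fitted log2 fold changes of the 10 genes (stressed over control, edgeR) with all 4 libraries, as squares with bars of 1 SE, and with each library left out in turn, as coloured points. Nr4a2, Ppargc1a, Gem and Akap12 stay above 0 in all 4 cases, and the other 6 genes cross 0 in at least 1.

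Levels were ordered by CPM per kilobase of exon, averaged over the 4 libraries. Nr4a1 stood far above the rest at 326, with a range over libraries of 238 to 400. Irs2 followed at 36.9 (21.6 to 47.0), and then Gem at 17.5, Sik1 at 17.4, Rgs2 at 13.8, Areg at 11.6, Nr4a2 at 6.64 and Ppargc1a at 5.91. From Irs2 to Ppargc1a each gene's range overlapped that of its neighbour in the order. Nr4a3 at 1.34 (0.58 to 1.91) lay below every library of Ppargc1a, and Akap12 at 0.171 (0.017 to 0.350) lay below every library of Nr4a3.

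Among other genes known to answer to cAMP, several immediate early genes were lower in stressed cells. Of 15 such genes listed, 14 were tested, and 4 had values above 0 and 10 below, with a median of -0.57 against -0.0091 over all tested genes, and the difference from the 10 was not tested. By edgeR 0 were called, and 8 had an unadjusted p below 0.05, against 12.8% of all genes. DESeq2 called 6 lower and 1 higher, against 2.67% of all genes called lower and 1.73% higher. The 6 were the immediate early genes Fos, Junb, Egr1, Ier2, Dusp1 and Btg2, which growth factors and cell handling also induce, and they belong to the summed immediate early genes given above. Egr1 fell by DESeq2 from 2933 and 3002 CPM in control to 1753 and 1281 CPM in the stressed pair. Ier2 fell from 899 and 767 to 448 and 343 CPM. That both were lower and Nr4a2 higher in the stressed libraries only restates these calls, and a relation between the genes was not tested.

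The called gene that was higher was Pde4d, which encodes a phosphodiesterase that breaks down cAMP. It rose by DESeq2 from 18.6 and 18.6 CPM to 34.0 and 53.7 CPM, with an adjusted p of 0.016 and an edgeR log2 fold change of 1.24. Crem, the source of the cAMP-inducible repressor ICER, was picked after its values were seen: it stood at 24.2 and 30.1 CPM in control and at 49.0 and 38.5 CPM in stressed libraries, and was not called (edgeR adjusted p = 0.335, DESeq2 adjusted p = 0.277). In the promoters, 11 of the 12 matched genes of this list held CRE letters, against 20.8% of all promoters and 6 of the 7 matched genes among the 10. A gene was counted if any of its promoters held them, while the 20.8% is per promoter. The letters were also held by 10 of 22 matched genes of the relay, 8 of 20 relatives of the 10 and 5 of 14 partners and receptors. Among melanocyte markers they were held by 2 of 6, and among keratinocyte markers by 1 of 7. The part of base composition was not tested. Fos, which was lower, held 2 cores, and Dusp1 and Btg2, also lower, each held a full CRE. Pde4d, the called gene that was higher, was the 1 of the 12 that held none. Nr4a2, among the 10 and also called higher, held 4 cores.

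**Figure D4:**
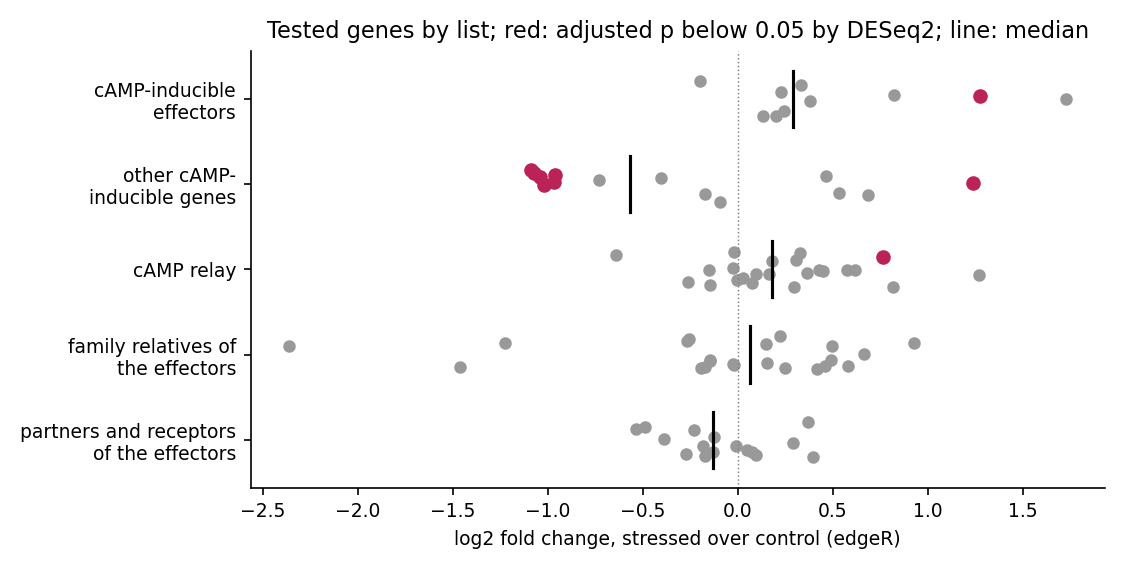
Fitted log2 fold changes (stressed over control, edgeR) of the tested genes in each list, with DESeq2 calls in red and the list median as a line; vertical scatter within a list is for display only. The median is 0.29 for the 10 effectors and -0.57 for the other cAMP-inducible genes, whose 7 calls were 6 lower and 1 higher.

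Genes of the relay itself, from receptors to CREB and its coactivators, spanned log2 fold changes from -0.64 to 1.27. Of 26 listed, 23 were tested, with 16 above 0 and 7 below, against 49.1% of all tested genes above 0, and a median of 0.18. By edgeR 0 were called, and 4 had an unadjusted p below 0.05, against 12.8% of all genes. DESeq2 called 1 higher, against 1.73% of all genes, and 0 lower, against 2.67%. The call was Adcy7, an adenylyl cyclase gene, at 97.2 and 85.1 CPM in control and 139 and 171 CPM in stressed libraries (DESeq2 adjusted p = 0.033). Mc1r was picked after its values were seen, at 58.1 and 23.0 CPM in control against 79.4 and 115 CPM in stressed libraries, and was not called (DESeq2 adjusted p = 0.064, edgeR adjusted p = 0.311). Creb1, also picked after its values were seen, was at 124 and 114 against 112 and 125 CPM.

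Relatives of the 10 genes and the proteins they work with gave no call by either edgeR or DESeq2. Among 25 relatives 22 were tested, 11 above 0 and 11 below, with a median of 0.066. An unadjusted edgeR p below 0.05 was reached by 1, against 12.8% of all genes. Epgn, an EGF receptor ligand gene like Areg, was at 17.7 and 16.6 CPM in control and at 45.1 and 20.2 CPM in stressed libraries. Pprc1, of the PGC-1 family, was at 75.6 and 72.4 against 87.2 and 148 CPM, and Sik3 was at 45.2 and 62.1 against 72.7 and 78.2 CPM. Among 16 partners and receptors, all tested, 6 were above 0 and 10 below, with a median of -0.13. Here too 1 had an unadjusted edgeR p below 0.05, against 12.8% of all genes. Egfr, the receptor of amphiregulin, was at 90.4 and 103 CPM in control and at 73.8 and 64.3 CPM in stressed libraries. Rxrg, of the RXR family with which some NR4A receptors form dimers, was at 10.5 and 14.1 against 9.57 and 7.46 CPM, and Cycs, a mitochondrial target of PGC-1alpha, at 31.2 and 23.6 against 36.0 and 35.8 CPM. In all 3 the groups did not overlap, which the rule for naming them required. Among the 16, the groups did not overlap in 3 that were higher and 7 that were lower, against 44.7% of all tested genes in either direction.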

How the data were processed

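Each file holds the raw gene counts of 1 library, which the authors obtained with featureCounts 1.6.1 on mm10 exons at a minimum mapping quality of 30 and without strand or paired-end options, per the file headers. Per the submitters' processing notes, STAR 2.5.3, Trim Galore 0.4.1 and DESeq2 1.22.2 were used, with no steps named. The headers number the alignments of stressed replicates 1 and 2 as 2 and 3. The labels do not say whether libraries came from separate animals, so p-values measure only the spread between libraries, which may be technical.

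Genes passing edgeR's filterByExpr (minimum count 10), 13348 of 27933, were fitted in R 4.3.3 by the two-sided quasi-likelihood test of edgeR 4.0.16 with TMM scaling and group as the only term, with Benjamini-Hochberg adjustment over all genes and a threshold of 0.05. The SE is the absolute log2 fold change over the square root of F. DESeq2 1.42.0 and limma 3.58.1 (voom), other scalings and filters, the replicate block and leaving out each library were alternatives, and DESeq2 with a library left out was added after the data were seen. The tests were checked on simulated data. The 10 genes and all lists were chosen with earlier results of these data known. From the other lists the text names called genes or, where there were none, the 3 largest non-overlapping differences at 10 CPM or more, with exceptions marked.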

Additional observations from a re-analysis of the deposited data

How the results depend on the processing

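With 2 libraries a group, the tool and single libraries decided most calls. The edgeR count of 0 genes over the whole table became 760 with no low-count filter and 587 by DESeq2, and ran from 0 to 995 with 1 edgeR library left out. The count among the 10 genes became 1 with no low-count filter, where 760 of 18926 genes were called, and 1 by DESeq2, where 587 of 13348 were. With a library left out, edgeR called Nr4a2 and Rgs2 without control replicate 1, and Ppargc1a and Irs2 without control replicate 2. In both of these fits the count over the whole table rose as well. By DESeq2 with a library left out, 501, 826, 150 and 45 genes were called without control replicates 1 and 2 and stressed replicates 1 and 2, and among the 10 genes 1, 2, 0 and 0. The median of the 10 ran from 0.0056 to 0.63 with edgeR and from 0.011 to 0.62 with DESeq2. Where a group kept 1 library, it was assumed to vary like the other group.

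Under the scalings, filters, tools and block tried on all 4 libraries, all 10 kept their sign, though Akap12 did not pass the filter of at least 5 CPM in 2 libraries. Scaling moved the median of all genes by less than 0.1. Signs turned only with a library left out, over ranges by edgeR of -0.045 to 0.57 for Nr4a1, -0.37 to 1.32 for Nr4a3, -0.80 to 0.24 for Sik1, -0.23 to 1.24 for Rgs2, -0.25 to 0.87 for Irs2 and -0.11 to 0.41 for Areg. The turned values by DESeq2 were -0.043 for Nr4a1, -0.37 and -0.31 for Nr4a3, 0.24 and 0.23 for Sik1, -0.15 and -0.23 for Rgs2, -0.25 for Irs2, and -0.095 and -0.10 for Areg. Nr4a2 kept its sign from 0.91 to 1.77, and Ppargc1a from 0.44 to 1.37, by edgeR. The causes were not tested. Replicate numbers were not shown by the labels to pair libraries. Deviations of same-numbered libraries from their group means correlated at 0.17 across genes, and with the replicate block edgeR called 0 genes, with Nr4a2 at an adjusted p of 0.14.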

Other observations

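Among relatives of Areg, other EGF receptor ligand genes set the control libraries apart. Btc was at 52.5 CPM in control replicate 1 and 1.86 CPM in control replicate 2, and Ereg at 24.4 and 3.56 CPM, with stressed values of 18.9 and 4.27 CPM for Btc and 12.4 and 10.9 CPM for Ereg. Rgs4 had the opposite order, at 0.86 and 13.3 CPM in the controls and 1.88 and 3.27 CPM in the stressed libraries. These genes were picked after their values were seen. Summed keratinocyte markers were higher in control replicate 1, and their part in these values was not tested.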
